A study of Mus musculus with 12 samples.

Results

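The genes examined here encode ATP-dependent chromatin remodellers, the enzymes that slide, evict, space or exchange nucleosomes with energy from ATP hydrolysis, together with subunits of their complexes. Members were taken by symbol: every gene of the deposited table starting with Chd and a digit, with Smarca, Smarcb, Smarcc, Smarcd or Smarce, or with Ino80, and in addition Arid1a, Arid1b, Arid2, Pbrm1, Ep400 and Srcap. Of 32721 genes in the table, 37 matched. Protein-coding genes made up 34 of them, and all 34 passed the filter on low values that left 14279 genes to test. The other members were Ino80dos, a long noncoding RNA, Smarca5-ps, a transcribed pseudogene, and Smarce1-ps1, a pseudogene that was below the filter. By role, 19 of the 34 coding members are motors and 15 are core or accessory subunits.

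Remodeller motors share an ATPase of the SNF2 family and fall into 4 families. SWI/SNF complexes (BAF and PBAF) slide and eject nucleosomes at enhancers and promoters, ISWI complexes space nucleosomes evenly, CHD enzymes act at active genes or, within the NuRD complex, in repression, and the INO80 family moves nucleosomes and exchanges the histone variant H2A.Z. Many positions in these complexes are filled by alternative paralogs, so that the set of paralogs a cell expresses shapes which complexes it can build.

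The cells were mouse embryonic fibroblasts whose Vps15 alleles were floxed in all 4 groups (MEF Vps15f/f). Vps15, encoded by Pik3r4, is the regulatory partner of the lipid kinase Vps34, which is needed for autophagy and endosomal traffic. The WT groups had received adeno-GFP and the Vps15KO groups adeno-CRE, 5 days before sampling, and cells at 90% confluence in DMEM with 4.5 g/L glucose and 10% fetal bovine serum either stayed in this basal medium or spent 2 h in EBSS, a salt medium free of amino acids. Each of the 4 groups (WT basal, WT EBSS, Vps15KO basal, Vps15KO EBSS) had 3 libraries of poly-A RNA. EBSS also lacks serum and holds less glucose, so the removal of amino acids, serum and glucose cannot be told apart. Likewise, exposure to Cre and loss of Vps15 cannot be told apart. The cells are 1 floxed line by the labels, the promoter that drives Cre is not named, and the library names read pLEX where the protocol says adeno. Nothing states that replicates came from separate cultures, so p-values measure the spread between these libraries, which may be technical.

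Libraries held 21278921 to 21698584 reads in genes. WT basal replicate 2 stood apart from its replicates, as did WT EBSS replicate 1, and each result was also fitted without both. Pik3r4 had 875 ± 10.3 normalized counts in WT basal (mean ± SD, n = 3, as for all such values) and 658 ± 36.7 in Vps15KO basal, with 895 ± 62.7 and 632 ± 35.9 in EBSS, lower in Vps15KO in both media (log2 differences -0.40 and -0.48, limma adjusted p = 8.41e-05 and 1.03e-05). Most Pik3r4 reads thus remained in Vps15KO, and counts over the whole gene show neither excision nor the protein level. Of 10 fibroblast markers, Vim had 87538 to 154568 counts and Col1a1 15622 to 90837, while Thy1 had at most 3.18. The summed level of the 10 was 483088 to 569954 in the WT libraries and 276886 to 290160 in the Vps15KO libraries. Of 5 markers of macrophages and blood, Ptprc, Adgre1 and Itgam had at most 2.0 counts, and the list's sum was 802 to 897 in WT and 2635 to 3799 in Vps15KO, nearly all from Cd68, a lysosomal protein gene. Sums of 4 endothelial, 4 epithelial and 4 muscle markers and of the 2 adipocyte markers in the table stayed under 38 counts, with Myog at 0 in all libraries. Those of 4 neural markers were 513 to 724, mostly Map2. The part of these marker differences in the genotype results was not tested. In bulk RNA, fewer cells of a type and less RNA per cell cannot be told apart.

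After EBSS, the motors Chd7, Ino80, Chd2 and Smarca5 and the targeting subunits Arid1a, Arid1b, Arid2 and Pbrm1 rose in both genotypes, and the SWI/SNF subunits Smarcb1, Smarcd2 and Smarcd3 and the motors Smarca2 and Chd4 fell in both. Between genotypes, Vps15KO cells had more Chd1, Chd2, Chd5 and Smarca5 and less Smarca2, Smarca1, Smarcc2, Smarcd3 and Srcap, in both media. A gene was called at an adjusted p under 0.05, with limma over all genes tested in a comparison. Not all of these calls held in alternative fits. With trends of transcript length and GC content removed, the EBSS calls of Chd2 in WT and of Smarca5, Pbrm1, Smarcb1 and Smarcd3 in Vps15KO were lost. The falls of Smarcb1 and Chd4 in Vps15KO and the higher Smarca5 in EBSS were also lost without certain single libraries. Changes are given as differences of the deposited log2 values. Levels are normalized counts (reads over the library's size factor). Values after ± are SE for log2 differences.

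In WT, 16 of the 34 coding members rose and 9 fell after EBSS, with a median log2 change of 0.13 against -0.02 over all genes tested. The called share was 73.5% of members and 62.7% of all genes tested (31.4% higher and 31.3% lower). In Vps15KO, 15 members rose and 7 fell, with a median of 0.05 against -0.02. There the called share was 64.7% of members and 52% of all genes (25.9% higher and 26.1% lower). Since most genes changed, a call alone sets no member apart. The members that rose in both genotypes numbered 14 (Arid1a, Arid1b, Arid2, Chd1, Chd2, Chd7, Chd9, Ino80, Ino80c, Ino80d, Pbrm1, Smarca5, Smarcad1 and Srcap), beside 20.7% of all genes, and 7 fell in both (Chd4, Ino80e, Smarca2, Smarcal1, Smarcb1, Smarcd2 and Smarcd3), beside 19.7%. EBSS and basal libraries did not overlap for 25 members in WT (16 higher, 9 lower; all genes 65.2%, with 32.7% higher and 32.5% lower) and 23 in Vps15KO (16 higher, 7 lower; all genes 63%, with 31.1% higher and 31.9% lower).

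Between genotypes, lower values in Vps15KO were the more frequent. In basal medium 5 members were higher in Vps15KO and 18 lower, with a median of -0.21 against -0.01 over all genes (58.5% of all genes called, 29.3% higher and 29.2% lower). In EBSS, 8 were higher and 16 lower, with a median of -0.19 against -0.00076 (57.2% of all genes called, 29.4% higher and 27.8% lower). Thus 52.9% and 47.1% of the members were lower, and 14.7% and 23.5% higher. In both media 4 members were higher (Chd1, Chd2, Chd5 and Smarca5; all genes 20.6%) and 12 lower (Arid1a, Chd3, Chd6, Chd8, Chd9, Smarca1, Smarca2, Smarcc2, Smarcd1, Smarcd3, Smarce1 and Srcap; all genes 19.8%). The libraries of the 2 genotypes did not overlap for 24 members in basal medium (7 higher, 17 lower; all genes 61.7%, with 30.5% higher and 31.1% lower) and 25 in EBSS (8 higher, 17 lower; all genes 66.3%, with 33.8% higher and 32.5% lower). The comparisons share libraries.

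**Figure D1:**
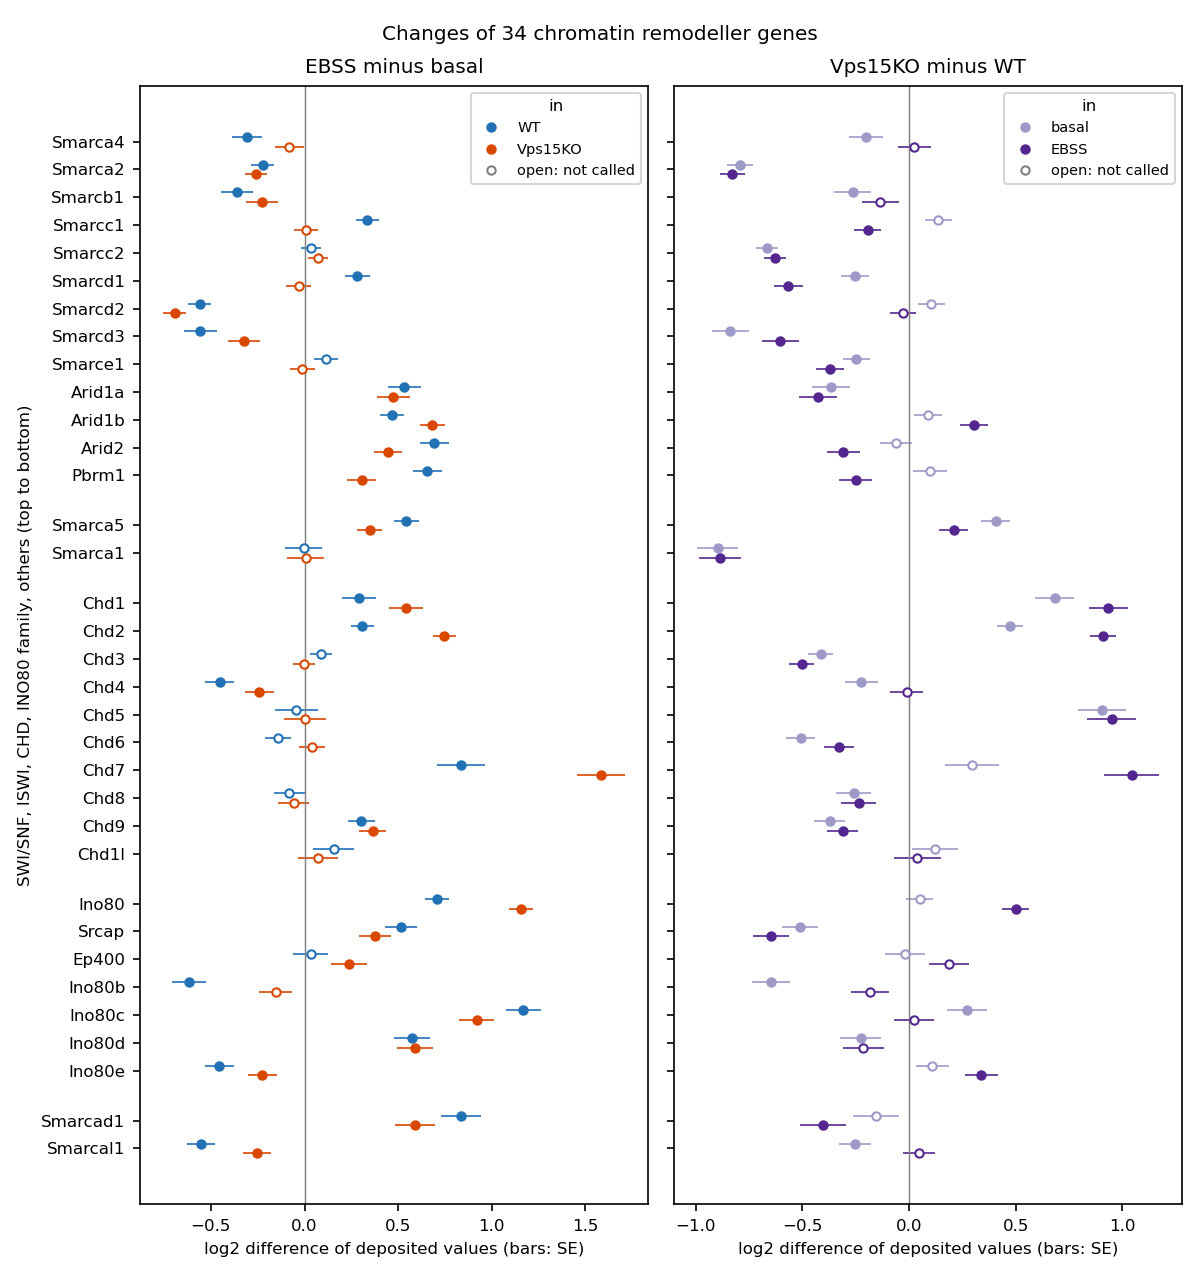
Log2 differences of the deposited values for the 34 coding members, by family from top to bottom, with standard errors as bars: EBSS minus basal on the left (WT blue, Vps15KO orange) and Vps15KO minus WT on the right (basal light, EBSS dark). Filled points passed the test. Chd7 lies farthest right on the left panel, and most SWI/SNF points lie left of 0 on the right panel.

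By transcript length, the members covered a wide range of levels. In normalized counts per kb of the longest coding transcript, averaged over the 12 libraries, Smarcb1 had 981, Chd4 811, Chd3 667 and Smarcc2 625, and the lowest were Smarca1 with 32.6, Chd1l with 30.5, Chd5 with 6.91 and Chd7 with 3.62. The median over all genes tested was 165. Chd5 and Chd7 were thus present at few reads, where the deposited scale shrinks log2 differences.

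Promoter sequence was examined because members of 1 complex moved in different directions. RefSeq windows (GRCm38.p6, from 250 bases before the start to 50 after) were given for 26 coding members, in 32 windows. Arid2, Chd1, Chd2, Chd3, Chd7, Ino80c, Ino80d and Smarce1 had none. Member windows held a median of 26.5 CpG dinucleotides (range 1 to 48), against 20 in windows of genes tested (range 0 to 67). The motifs searched, on both strands, were CACGTG (the E-box read by TFEB and clock factors), GTAAACA (FOXO), TGATGNAA (ATF4 with C/EBP), TGACGTCA (cAMP response element), TGACNNNGC (NRF2) and TTTCCCGC (E2F). Members held CACGTG in 2 windows (Pbrm1 and Ino80e, against 9.72% of windows of genes tested), TTTCCCGC in 2 (Arid1a and Smarcd1, against 1.90%) and TGACNNNGC in 1 (Smarcad1, against 14.1%), and the other motifs in none of the windows (shares over genes tested 2.54%, 2.37% and 2.92% in the order above). Stretches of 60 bases around the 2 shared motifs, which are in capitals, follow 5′ to 3′ on the gene's strand, to set a member that rose after EBSS (Pbrm1) beside one that fell (Ino80e) with the same motif, and 2 members that were lower in Vps15KO in both media (Arid1a, Smarcd1) beside each other.
Pbrm1 (chr14:31018977-31019036, plus strand): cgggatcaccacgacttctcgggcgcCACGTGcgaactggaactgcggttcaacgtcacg
Ino80e (chr7:126862557-126862616, minus strand): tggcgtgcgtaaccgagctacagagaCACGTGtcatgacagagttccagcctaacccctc
Arid1a (chr4:133754007-133754066, minus strand): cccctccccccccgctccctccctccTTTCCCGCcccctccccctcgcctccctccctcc
Smarcd1 (chr15:99702130-99702189, plus strand): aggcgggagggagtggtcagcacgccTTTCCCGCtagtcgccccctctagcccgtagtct
In these windows CACGTG starts 135 bases before the Pbrm1 start and 218 before an Ino80e start, and TTTCCCGC 55 before an Arid1a start and 131 before that of Smarcd1. Each stretch lies upstream of the start its window is set on. That Ino80e start is 1 of 2 with a window, and the other Ino80e window held no CACGTG. The Arid1a start is also 1 of 2 with a window, and the Arid1a stretch lies within the annotated gene (chromosome 4, 133679008 to 133756769). A match describes letters, not binding.

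Smarca4 (BRG1) and Smarca2 (BRM) are the alternative motors of SWI/SNF, and their shares of the pair differed between genotypes. Smarca2 had 1297, 1312 and 1301 normalized counts in WT basal, 1087, 1114 and 1135 in WT EBSS, 773, 749.8 and 698 in Vps15KO basal and 608, 604 and 630.2 in Vps15KO EBSS. The 4 groups did not overlap, with WT basal highest and Vps15KO EBSS lowest. Smarca2 was lower in Vps15KO, with log2 changes of -0.79 ± 0.06 (adjusted p = 3.30e-09) in basal medium and -0.83 ± 0.06 (adjusted p = 1.63e-09) in EBSS, and fell after EBSS, with log2 changes of -0.22 ± 0.06 (adjusted p = 0.00348) in WT and -0.26 ± 0.06 (adjusted p = 0.00153) in Vps15KO. Smarca4 had 2353, 2749 and 2239 normalized counts in WT basal, 2068, 2078 and 1763 in WT EBSS, 2031, 2249 and 2071 in Vps15KO basal and 2045, 1972 and 1979 in Vps15KO EBSS. In each medium the libraries of the genotypes overlapped. Smarca4 fell after EBSS in WT (-0.31 ± 0.08, adjusted p = 0.00217), with -0.08 ± 0.08 in Vps15KO, not called on the deposited values but called lower with quantile normalization (adjusted p = 0.032). It was lower in Vps15KO in basal medium, with a log2 change of -0.20 ± 0.08 (adjusted p = 0.0327), but this call was lost without WT basal replicate 2 (adjusted p = 0.131), without Vps15KO basal replicate 1 (0.112) or without Vps15KO basal replicate 3 (0.0945). Per kb, Smarca4 made up 63.4% ± 2.35 and 62.1% ± 2.65 of the pair in WT basal and EBSS, and 72.6% ± 1.48 and 75.1% ± 0.648 in Vps15KO (SD, n = 3, no test).

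Among the core subunits, the shares of the scaffold paralogs Smarcc1 and Smarcc2 also differed between genotypes. Smarcc2 had 3506, 3418 and 3405 normalized counts in WT basal, 3471, 3545 and 3566 in WT EBSS, 2112, 2249 and 2121 in Vps15KO basal and 2280.3, 2265 and 2261 in Vps15KO EBSS. The genotypes did not overlap. Levels were lower in Vps15KO, with log2 changes of -0.67 ± 0.05 (adjusted p = 4.98e-09) in basal medium and -0.63 ± 0.05 (adjusted p = 9.52e-09) in EBSS, and EBSS gave no call in either genotype (0.03 and 0.07). Smarcc1 had 1971, 1899 and 1987 normalized counts in WT basal, 2678, 2484 and 2268 in WT EBSS, 2074, 2216 and 2157 in Vps15KO basal and 2077, 2161 and 2236 in Vps15KO EBSS, and the WT EBSS libraries were the highest. It rose after EBSS in WT by 0.34 ± 0.06 (adjusted p = 1.63e-04), with 0.01 ± 0.06 in Vps15KO, not called. The WT rise was not called once length and GC trends were removed (adjusted p = 0.205). In EBSS it was lower in Vps15KO (-0.19 ± 0.06, adjusted p = 0.0141), a call lost without WT EBSS replicate 1 (adjusted p = 0.0931) or Vps15KO EBSS replicate 1 (0.0646). The share of Smarcc1 in the pair per kb was 30.9% ± 0.552 in WT basal and 44.01% ± 0.479 in Vps15KO basal. In EBSS the shares lay closer, at 35.7% ± 2.21 in WT and 42.9% ± 1.01 in Vps15KO.

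The 3 Smarcd paralogs, which link the complex to transcription factors, did not all move alike after EBSS. Smarcd2 and Smarcd3 fell in both genotypes, and Smarcd1 was called higher in WT only. Smarcd2 had 1082, 1142 and 1103 normalized counts in WT basal, 748, 752 and 728 in WT EBSS, 1238, 1192 and 1153 in Vps15KO basal and 700.1, 709 and 774 in Vps15KO EBSS. Both EBSS groups lay below both basal groups. It fell, with log2 changes of -0.56 ± 0.06 (adjusted p = 3.56e-07) in WT and -0.69 ± 0.06 (adjusted p = 3.85e-08) in Vps15KO, to 66.96% and 60.9% of the basal mean. Smarcd3 had 454, 503 and 414 normalized counts in WT basal, 299.9, 305 and 298 in WT EBSS, 266, 243 and 222 in Vps15KO basal and 182, 198 and 187 in Vps15KO EBSS, with no overlap between any of the groups. It fell after EBSS, with log2 changes of -0.56 ± 0.09 (adjusted p = 2.06e-05) and -0.32 ± 0.09 (adjusted p = 0.00439), and was lower in Vps15KO, with log2 changes of -0.84 ± 0.09 (adjusted p = 1.79e-07) in basal medium and -0.60 ± 0.09 (adjusted p = 8.90e-06) in EBSS. Its fall in Vps15KO was not called once length and GC trends were removed (adjusted p = 0.0598). Smarcd3 overlaps Chpf2, a chondroitin synthesis gene with more reads, by 1777 bases. Whether the counting used strand is not stated, and Chpf2 was itself lower in Vps15KO, with log2 changes of -0.32 ± 0.07 and -0.39 ± 0.07. After EBSS Chpf2 had -0.16 ± 0.07 in WT, not called, and fell in Vps15KO, with -0.23 ± 0.07 (adjusted p = 0.0121). Smarcd1 had 964, 984 and 902 normalized counts in WT basal, 1121, 1214 and 1145 in WT EBSS, 761, 806 and 809 in Vps15KO basal and 716, 792 and 818 in Vps15KO EBSS, highest in WT EBSS. It rose in WT (0.28 ± 0.07, adjusted p = 0.00136) and had -0.03 ± 0.07 in Vps15KO, not called, and it was lower in Vps15KO in both media (-0.25 ± 0.07, adjusted p = 0.00326, and -0.57 ± 0.07, adjusted p = 9.26e-07). Per kb, Smarcd2 took 42.3% ± 1.42 of the trio in WT basal, 34.03% ± 0.620 in WT EBSS, 53.4% ± 0.593 in Vps15KO basal and 43.6% ± 1.19 in Vps15KO EBSS.

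Smarcb1, the core subunit lost in rhabdoid tumours, had 1788, 2346 and 1800.4 normalized counts in WT basal, 1508, 1489 and 1571 in WT EBSS, 1586, 1784 and 1526 in Vps15KO basal and 1376, 1393 and 1385 in Vps15KO EBSS, with WT basal replicate 2 the highest. It fell after EBSS, with a log2 change of -0.36 ± 0.09 (adjusted p = 0.00131) in WT. In Vps15KO the fall was -0.23 ± 0.09 (adjusted p = 0.0313) and was not called without Vps15KO basal replicate 2 (adjusted p = 0.164) or without any 1 of the Vps15KO EBSS libraries (0.0668 to 0.0762). Nor was it called without a filter (0.0652). Vps15KO cells had less in basal medium (-0.26 ± 0.09, adjusted p = 0.0128), a call lost without WT basal replicate 2 (adjusted p = 0.0536) or Vps15KO basal replicate 3 (0.0691). Smarce1, a core subunit with an HMG box, was lower in Vps15KO in both media (-0.25 ± 0.06 and -0.37 ± 0.06) and was not called after EBSS. Smarce1-ps1 is annotated as a pseudogene, and whether it shares reads with Smarce1 was not tested.

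The targeting subunits rose together after EBSS. Arid1a and Arid1b are the alternative DNA-binding subunits that define BAF, and Arid2 and Pbrm1, which carries bromodomains, define PBAF. Arid1a had 1531, 1340.1 and 1540.5 normalized counts in WT basal, 2499, 2152 and 1811 in WT EBSS, 1099, 1173 and 1123 in Vps15KO basal and 1642, 1523 and 1578 in Vps15KO EBSS. It rose in WT by 0.53 ± 0.09 (adjusted p = 4.38e-05) and in Vps15KO by 0.47 ± 0.09 (adjusted p = 2.24e-04). Arid1b rose by 0.47 ± 0.07 and 0.68 ± 0.07, and Arid2 by 0.69 ± 0.08 and 0.44 ± 0.08. Pbrm1, whose window holds CACGTG, had 1255, 1014 and 1248 normalized counts in WT basal, 1937, 1920.2 and 1712 in WT EBSS, 1307, 1212 and 1237 in Vps15KO basal and 1618, 1578 and 1467 in Vps15KO EBSS, highest in WT EBSS. It rose by 0.66 ± 0.08 (adjusted p = 1.01e-06) in WT and 0.31 ± 0.08 (adjusted p = 0.00334) in Vps15KO, the latter not called once length and GC trends were taken out (adjusted p = 0.923). Between genotypes the BAF paralogs went different ways: Arid1a was lower in Vps15KO in both media (-0.37 ± 0.09 and -0.43 ± 0.09), and Arid1b was higher in EBSS (0.31 ± 0.07), with 0.09 ± 0.07 in basal medium, not called. The Arid1a share of the pair per kb was 69.4% ± 0.843 and 70.3% ± 3.60 in WT basal and EBSS and 62.1% ± 0.806 and 58.6% ± 0.659 in Vps15KO. Arid2 and Pbrm1 were lower in Vps15KO in EBSS (-0.31 ± 0.08 and -0.25 ± 0.08). The Pbrm1 call was lost without Vps15KO EBSS replicate 3 (adjusted p = 0.0558).

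Over the SWI/SNF family, 8 of 13 members were called lower and 0 called higher in Vps15KO in basal medium (-0.25 median). There 29.2% of all genes tested were lower and 29.3% higher. In EBSS 9 were lower and 1 higher (-0.31 median), beside 27.8% and 29.4% of all genes. After EBSS 6 rose and 5 fell in WT (all genes 31.4% and 31.3%), and 4 rose and 4 fell in Vps15KO, near the shares over all genes (25.9% and 26.1%). The 5 members not called between genotypes in basal medium by limma were Smarcc1 (0.14, unadjusted p = 0.0452), Smarcd2 (0.10), Arid1b, Arid2 (-0.06) and Pbrm1 (0.10). By library the genotypes did not overlap for 2 members higher in Vps15KO (Smarcc1 and Smarcd2) and 7 lower (all genes 30.5% and 31.1%). With length and GC trends removed, limma called Smarcd2 (0.18, adjusted p = 0.00708) and Arid1b (0.17, adjusted p = 0.0215) higher there. Arid2 was then called lower (-0.15, adjusted p = 0.0161).

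**Figure D2:**
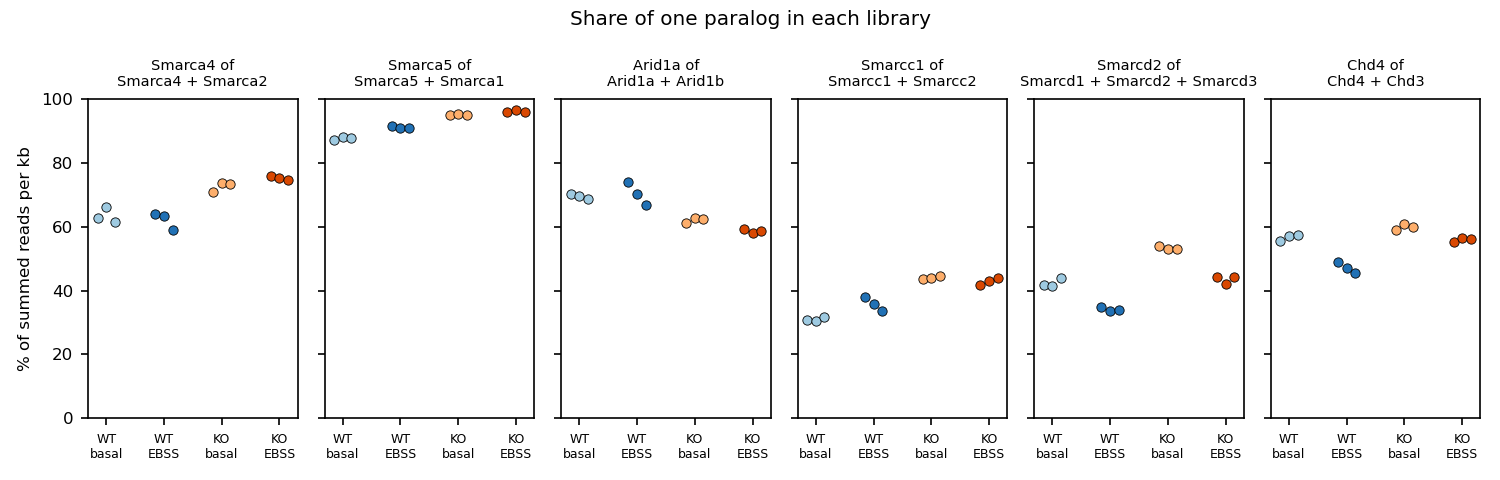
Share of 1 paralog in the summed normalized counts per kb of its pair or trio, in percent, with 1 point per library and 3 libraries per group. Smarca4, Smarca5 and Smarcc1 took larger shares in all Vps15KO libraries than in any WT library, and Arid1a took smaller ones.

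Of the ISWI motors, Smarca5 (SNF2H) and Smarca1 (SNF2L) differed in opposite directions between genotypes. Smarca1 had 234, 183 and 218 normalized counts in WT basal, 211, 213 and 206 in WT EBSS, 105, 95.1 and 103 in Vps15KO basal and 113, 93.7 and 98.8 in Vps15KO EBSS. Every Vps15KO library lay below every WT library, at 47.8% of the WT mean in basal medium and 48.5% in EBSS. It was lower, with log2 changes of -0.90 ± 0.10 (adjusted p = 3.61e-07) and -0.89 ± 0.10 (adjusted p = 3.83e-07), with no call after EBSS (-0.01 and 0.01). In WT a fall was called once length and GC trends were removed (-0.31). Smarca5 had 2007, 1700.0 and 1991 normalized counts in WT basal, 2958, 2747 and 2623 in WT EBSS, 2537, 2521 and 2495 in Vps15KO basal and 3299, 3277 and 3059 in Vps15KO EBSS. It was higher in Vps15KO by 0.41 ± 0.07 (adjusted p = 5.40e-05) in basal medium. In EBSS it was higher by 0.21 ± 0.07 (adjusted p = 0.0134), a call lost without WT EBSS replicate 3 (adjusted p = 0.0684) or without Vps15KO EBSS replicate 1 (0.0533) or 2 (0.0509). It rose after EBSS by 0.54 ± 0.07 (adjusted p = 1.68e-06) in WT and 0.35 ± 0.07 (adjusted p = 3.41e-04) in Vps15KO, the latter not called when length and GC trends were taken out (adjusted p = 0.146). The Smarca1 share of the pair per kb was 12.4% ± 0.471 in WT basal and 4.87% ± 0.247 in Vps15KO basal. In EBSS it was 8.80% ± 0.403 in WT and 3.88% ± 0.340 in Vps15KO. Whether Smarca5-ps, a pseudogene with few reads (4.23 to 18.8 counts), shares reads with Smarca5 was not tested.

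Within the CHD family, Chd1 and Chd2, which act on nucleosomes of transcribed genes, were higher in Vps15KO and after EBSS. Chd1 had 825, 617 and 862 normalized counts in WT basal, 1012, 883 and 912 in WT EBSS, 1243, 1214 and 1256 in Vps15KO basal and 1789, 1837 and 1811 in Vps15KO EBSS. Each Vps15KO library lay above every WT library. It was higher in Vps15KO by 0.68 ± 0.09 (adjusted p = 4.39e-06) in basal medium and 0.93 ± 0.09 (adjusted p = 8.31e-08) in EBSS. After EBSS it rose by 0.54 ± 0.09 (adjusted p = 8.25e-05) in Vps15KO. In WT the rise was 0.29 ± 0.09 (adjusted p = 0.0105), a call that was lost without WT EBSS replicate 1 (adjusted p = 0.0565) and without both libraries that stood apart (0.214). Once length and GC trends were removed it was -0.065 (adjusted p = 0.369). Chd2 had 1368, 1278 and 1450.5 normalized counts in WT basal, 1724, 1708 and 1655 in WT EBSS, 1807, 2008 and 1906 in Vps15KO basal and 3299, 3140.2 and 3200.4 in Vps15KO EBSS. The Vps15KO EBSS libraries were the highest by far. It was higher in Vps15KO by 0.47 ± 0.06 (adjusted p = 2.82e-06) in basal medium and 0.91 ± 0.06 (adjusted p = 5.39e-10) in EBSS, and rose after EBSS by 0.31 ± 0.06 (adjusted p = 2.62e-04) in WT and 0.74 ± 0.06 (adjusted p = 1.29e-08) in Vps15KO. The WT rise was 0.031 (adjusted p = 0.605) once length and GC trends were removed. Chaserr, a long noncoding RNA next to Chd2 that is known to restrain it, overlaps Chd2 by 1949 bases. Chaserr was lower in Vps15KO in basal medium (-0.34 ± 0.09, adjusted p = 0.00236) and had 0.02 ± 0.09 in EBSS, not called. After EBSS it had -0.09 ± 0.09 in WT, not called, and rose in Vps15KO, as Chd2 did, by 0.27 ± 0.09 (adjusted p = 0.0134). The difference of its EBSS effect was 0.35 ± 0.12 (adjusted p = 0.0498). Reads of Chd2 and Chaserr may be mixed where strand was not used, and a part of Chaserr in the Chd2 changes was not tested.

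Chd3, Chd4 and Chd5 are the alternative motors of NuRD. Chd4 had 6296, 6923 and 6465 normalized counts in WT basal, 5424, 4806 and 4186 in WT EBSS, 5317, 5985 and 5554 in Vps15KO basal and 4756, 4758 and 4709.7 in Vps15KO EBSS. It fell after EBSS in WT (-0.45 ± 0.08, adjusted p = 5.26e-05), where WT EBSS replicate 3 was lowest. In Vps15KO the fall was -0.24 ± 0.08 (adjusted p = 0.0131), not called without Vps15KO basal replicate 2 (adjusted p = 0.0756). The gene was lower in Vps15KO in basal medium (-0.22 ± 0.08, adjusted p = 0.0182), not called without Vps15KO basal replicate 1 (0.0829) or 3 (0.054). Chd3 had 5471, 5663 and 5186 normalized counts in WT basal, 6109, 5839.9 and 5406 in WT EBSS, 3999.7, 4205 and 4018 in Vps15KO basal and 4197, 3991 and 4011 in Vps15KO EBSS, with the genotypes apart in both media. It was lower in Vps15KO, with log2 changes of -0.41 ± 0.06 (adjusted p = 9.88e-06) and -0.50 ± 0.06 (adjusted p = 8.91e-07), with no call after EBSS. Chd5 had 32.1, 44.5 and 39.99 normalized counts in WT basal, 37.2, 33.6 and 39.8 in WT EBSS, 87.9, 108 and 84.3 in Vps15KO basal and 94.4, 86.8 and 97.8 in Vps15KO EBSS. It was higher in Vps15KO, at 2.4 and 2.52 times the WT mean, by 0.91 ± 0.11 (adjusted p = 1.88e-06) and 0.95 ± 0.11 (adjusted p = 9.73e-07). Per kb it was still the lowest of the NuRD motors by a wide margin. Chd4 made up 56.7% ± 1.02 of Chd4 plus Chd3 in WT basal and 47.3% ± 1.71 in WT EBSS. In Vps15KO it made up 59.9% ± 0.823 in basal medium and 55.8% ± 0.639 in EBSS.

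Chd6, Chd7, Chd8 and Chd9 form the remaining CHD subfamily. Chd7, the gene mutated in CHARGE syndrome, had 9.02, 7.41 and 13.00 normalized counts in WT basal, 31.2, 28.5 and 35.7 in WT EBSS, 16.6, 15.7 and 14.7 in Vps15KO basal and 96.4, 104 and 72.1 in Vps15KO EBSS. No groups overlapped. Its mean rose 3.24-fold after EBSS in WT and 5.79-fold in Vps15KO, which on the deposited scale was 0.84 ± 0.13 (adjusted p = 1.87e-05) and 1.58 ± 0.13 (adjusted p = 1.11e-08). In EBSS it was higher in Vps15KO by 1.04 ± 0.13 (adjusted p = 1.50e-06). In basal medium the difference was 0.29 ± 0.13 (adjusted p = 0.0569), not called, but called on log2 of the count plus 1 (adjusted p = 0.0194), without WT basal replicate 3 (0.0269) or without Vps15KO EBSS replicate 3 (0.0418). Its counts were nevertheless few in every library. Chd9 had 619, 568 and 623 normalized counts in WT basal, 823, 728 and 704 in WT EBSS, 462, 476 and 440.3 in Vps15KO basal and 584, 618 and 596 in Vps15KO EBSS. It rose after EBSS by 0.30 ± 0.07 and 0.36 ± 0.07, and neither rise was called once length and GC trends were removed (adjusted p = 0.82 and 0.282). Levels were lower in Vps15KO, with log2 changes of -0.37 ± 0.07 and -0.31 ± 0.07. Chd6 had 1691, 1520.1 and 1641 normalized counts in WT basal, 1533, 1544 and 1322 in WT EBSS, 1113, 1159 and 1110.0 in Vps15KO basal and 1129, 1225 and 1124 in Vps15KO EBSS. Vps15KO cells had less, with log2 changes of -0.51 ± 0.07 (adjusted p = 5.21e-06) and -0.33 ± 0.07 (adjusted p = 4.94e-04) and was not called after EBSS. Its EBSS changes were -0.40 and -0.23, both called, after the same step. Chd6 and Chd9 were thus lower in Vps15KO in both media, as was Chd8 (below), and Chd7 was not. Chd8, a repressor of Wnt target genes, had 1967, 2001 and 1966 normalized counts in WT basal, 2124, 1883 and 1629 in WT EBSS, 1502, 1839 and 1618 in Vps15KO basal and 1602, 1621 and 1521 in Vps15KO EBSS. The gene was lower in Vps15KO, with log2 changes of -0.26 ± 0.08 (adjusted p = 0.0122) and -0.24 ± 0.08 (adjusted p = 0.0214), calls that single libraries decided: the first was lost without Vps15KO basal replicate 1 (adjusted p = 0.0792) and the second without WT EBSS replicate 1 (0.151), WT EBSS replicate 2 (0.0579) or Vps15KO EBSS replicate 3 (0.0783). Chd1l, a remodeller recruited by poly(ADP-ribose), had 67.1, 83.6 and 97.97 normalized counts in WT basal, 96.6, 96.7 and 89.7 in WT EBSS, 84.95, 100 and 90.2 in Vps15KO basal and 100.3, 91.7 and 101 in Vps15KO EBSS, and no comparison called it.

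**Figure D3:**
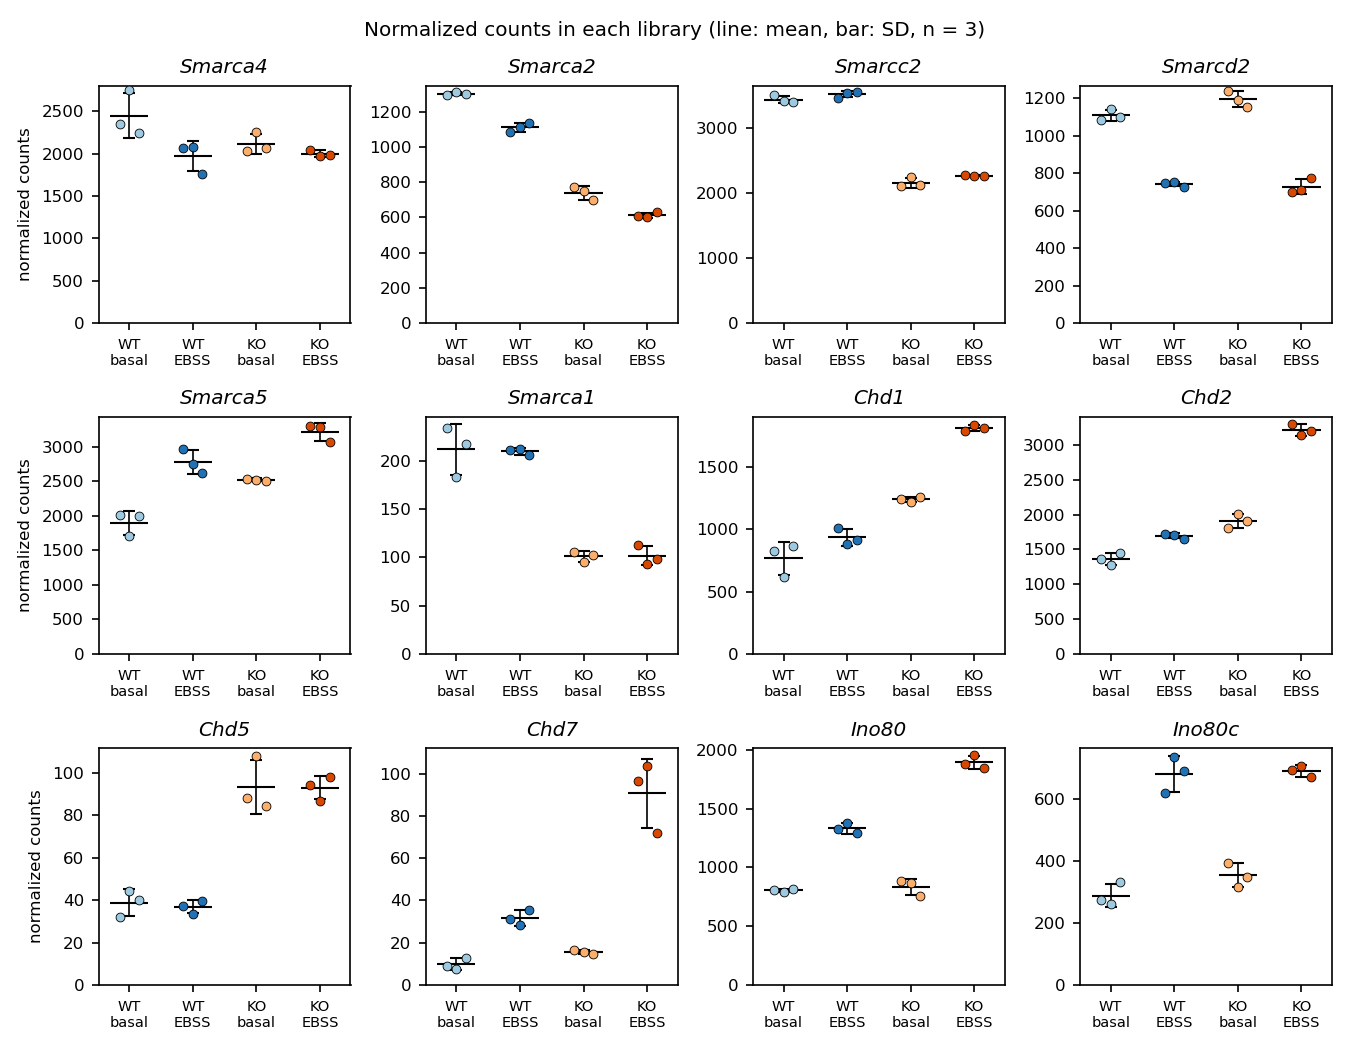
Normalized counts of 12 members in each library, with axes from 0, the group mean as a line and its SD as a bar (n = 3). Smarca2, Smarcc2 and Smarca1 are lower in all Vps15KO libraries than in any WT library, Chd1 and Chd5 are higher, and Chd7, Ino80 and Ino80c are higher in both EBSS groups than in the basal ones.

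In the INO80 family, Ino80, the motor of the complex of that name, had 807, 793 and 814 normalized counts in WT basal, 1324, 1378 and 1292 in WT EBSS, 884, 864 and 758 in Vps15KO basal and 1882, 1955 and 1844 in Vps15KO EBSS. Both basal groups overlapped, and both EBSS groups lay above them, Vps15KO highest. It rose 1.65-fold in WT (0.71 ± 0.06, adjusted p = 3.23e-08) and 2.27-fold in Vps15KO (1.16 ± 0.06, adjusted p = 6.86e-11). In EBSS it was higher in Vps15KO (0.50 ± 0.06, adjusted p = 2.73e-06). Srcap, which deposits H2A.Z, had 2074, 2289.6 and 1918 normalized counts in WT basal, 3395, 2986 and 2648 in WT EBSS, 1458, 1562 and 1361 in Vps15KO basal and 1994, 1789 and 1928 in Vps15KO EBSS. It rose after EBSS by 0.51 ± 0.08 (adjusted p = 4.09e-05) and 0.38 ± 0.08 (adjusted p = 0.00117) and was lower in Vps15KO, with log2 changes of -0.51 ± 0.08 (adjusted p = 4.98e-05) and -0.65 ± 0.08 (adjusted p = 3.22e-06). Ep400, the motor of the TIP60 complex, had 1559, 1747 and 1632 normalized counts in WT basal, 1973, 1696 and 1422 in WT EBSS, 1491, 1835 and 1563 in Vps15KO basal and 1895, 1869 and 1995 in Vps15KO EBSS, with overlap between most groups. Its rise in Vps15KO was 0.24 ± 0.09 (adjusted p = 0.0432), not called without any 1 of 6 libraries (WT EBSS replicate 2, Vps15KO basal replicate 1 or 3, or any Vps15KO EBSS replicate; adjusted p = 0.0555 to 0.178). On all 12 libraries it was not called with quantile normalization (0.13, adjusted p = 0.246) or without a filter (0.0896).

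The accessory subunits of INO80 did not follow their motor as a group. Ino80c had 274, 260.4 and 332 normalized counts in WT basal, 618, 736 and 689 in WT EBSS, 394, 318 and 348 in Vps15KO basal and 693, 707 and 671 in Vps15KO EBSS. The groups in EBSS lay above those in basal medium. It rose 2.36-fold in WT (1.17 ± 0.09, adjusted p = 6.26e-09) and 1.95-fold in Vps15KO (0.92 ± 0.09, adjusted p = 2.26e-07). In basal medium it was higher in Vps15KO (0.27 ± 0.09, adjusted p = 0.0191), not called without WT basal replicate 1 (adjusted p = 0.0611) or 2 (0.0553) or Vps15KO basal replicate 1 (0.112). Ino80d rose by 0.58 ± 0.10 and 0.59 ± 0.10. Its lower value in Vps15KO in basal medium (-0.23 ± 0.10, adjusted p = 0.0488) was not called without any 1 of 9 libraries (all but number 2 of WT basal and numbers 1 and 3 of WT EBSS; adjusted p = 0.0542 to 0.123). That call was also lost without a filter (0.0955) and with voom on the worked-back reads (0.0618). Ino80b had 667, 739.9 and 599.8 normalized counts in WT basal, 452, 404 and 420.0 in WT EBSS, 459.9, 389 and 402 in Vps15KO basal and 348, 357 and 409.9 in Vps15KO EBSS. It fell after EBSS in WT (-0.62 ± 0.09, adjusted p = 9.95e-06), with -0.16 ± 0.09 in Vps15KO, not called. It was lower in Vps15KO in basal medium, with a log2 change of -0.65 ± 0.09 (adjusted p = 6.81e-06). Ino80e, the other member with CACGTG, had 651, 703 and 602 normalized counts in WT basal, 464, 430.4 and 511 in WT EBSS, 668, 721 and 725 in Vps15KO basal and 569, 603 and 623 in Vps15KO EBSS. It fell, with a log2 change of -0.45 ± 0.08 (adjusted p = 5.76e-05) in WT. In Vps15KO the fall was -0.23 ± 0.08 (adjusted p = 0.0205), not called without Vps15KO basal replicate 2 (adjusted p = 0.0702) or 3 (0.0707) or Vps15KO EBSS replicate 1 (0.0867). Hirip3 overlaps Ino80e by 444 bases, so reads of the pair may be mixed where strand was not used, which was not tested. After EBSS Hirip3 had log2 changes of -0.53 ± 0.08 in WT and -0.26 ± 0.08 in Vps15KO.

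The 2 motors outside these families moved in opposite directions after EBSS. Smarcad1, which keeps heterochromatin silent through replication, had 506, 350.4 and 495 normalized counts in WT basal, 847, 844 and 762 in WT EBSS, 429.7, 368 and 395 in Vps15KO basal and 649, 570.0 and 614 in Vps15KO EBSS. It rose by 0.84 ± 0.11 (adjusted p = 2.06e-06) in WT and 0.59 ± 0.11 (adjusted p = 1.62e-04) in Vps15KO, and was lower in Vps15KO in EBSS (-0.40 ± 0.11, adjusted p = 0.00331). Without WT basal replicate 2, the lowest of its group, it was lower in Vps15KO in basal medium too (adjusted p = 0.0012). Smarcal1, which rewinds DNA at stalled forks, had 713, 794 and 689.8 normalized counts in WT basal, 466, 522 and 481 in WT EBSS, 589, 656 and 584 in Vps15KO basal and 508, 508 and 502 in Vps15KO EBSS. It fell, with a log2 change of -0.55 ± 0.07 (adjusted p = 3.59e-06) in WT and was lower in Vps15KO in basal medium (-0.25 ± 0.07, adjusted p = 0.00667). Its fall in Vps15KO (-0.25 ± 0.07, adjusted p = 0.00762) was not called without Vps15KO basal replicate 2 (adjusted p = 0.054).

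Transcript length and base composition went with the EBSS changes. The 34 coding members had a median transcript length of 6365 bases against 2990 over the genes tested, and 27 of them were longer than that. Across members, Spearman's rho of the EBSS change with length was 0.418 in WT and 0.546 in Vps15KO, and with GC content -0.604 and -0.561 (n = 34 genes measured in the same libraries, a description). Over 13702 genes rho was 0.329 and 0.362 with length and -0.299 and -0.219 with GC content. With each library's trends with length and GC content removed, 12 members rose and 12 fell in WT, with a median of 0.0052, and 11 rose and 9 fell in Vps15KO, with a median of -0.00056. Over all genes this step gave 28.7% higher and 32.8% lower in WT, and 22.7% and 30.4% in Vps15KO. The excess of rises over falls among members was gone in WT and smaller in Vps15KO. Ino80c (1.11 and 0.88), Chd7 (0.63 and 1.34), Ino80 (0.45 and 0.93) and Smarcad1 (0.52 and 0.36) were still called higher in both genotypes, and Smarcd2 (-0.41 and -0.65), Chd4 (-0.63 and -0.44) and Smarca2 (-0.43 and -0.46) lower. Of the calls above, the rises of Chd1, Chd2, Chd9 and Smarcc1 in WT, those of Chd9, Pbrm1, Smarca5 and Ep400 in Vps15KO, and the falls of Smarcd3, Smarcb1 and Ino80e in Vps15KO were not made there. It also called falls not called on the deposited values, those of Smarca1 (-0.31, adjusted p = 0.0035), Chd6 and Chd8 (-0.34) in WT and of Smarca4 (-0.24, adjusted p = 0.00565), Chd3 (-0.17), Chd6, Chd8 (-0.31) and Smarcc1 (-0.21) in Vps15KO. Between genotypes the excess of lower values was still seen. In basal medium 8 were higher and 19 lower (median -0.17), beside 32.0% of all genes lower. In EBSS 9 were higher and 17 lower (median -0.17), beside 31.8% of all genes lower. Of the genotype calls in basal medium, those of Smarca4 and Ino80c were not made with the trends removed.

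**Figure D4:**
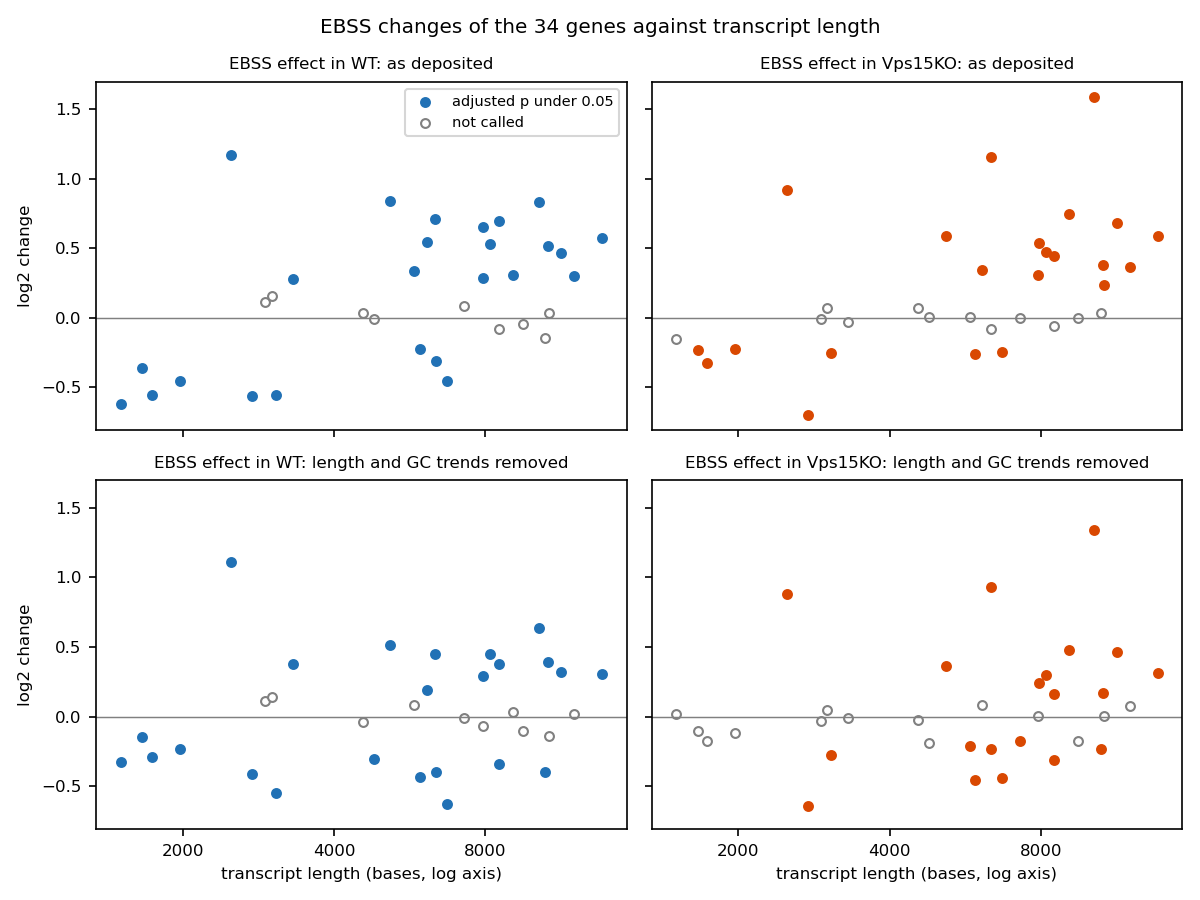
EBSS change (log2) of the 34 coding members against transcript length in bases on a log axis, in WT (left) and Vps15KO (right), as deposited (top) and with length and GC trends removed (bottom). Filled points passed the test. In the top panels the rises lie mostly to the right, apart from Ino80c on the left, and the points move down at that end in the bottom panels.

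Whether EBSS acted differently in the genotypes was tested with the interaction term, the EBSS effect in Vps15KO minus that in WT. It called 4 members higher and 3 lower of 34, against 17.8% of all genes tested (9.55% higher and 8.24% lower). Of the motors, Chd2 (0.44 ± 0.09, adjusted p = 0.00188) and Ino80 (0.45 ± 0.09, adjusted p = 0.00226) rose more in Vps15KO, and both were called in every alternative run. Chd7 had 0.75 ± 0.18 (adjusted p = 0.00787), which was not called on log2 of the count plus 1 (0.82, adjusted p = 0.0889) or with limma's voom on the worked-back reads (0.81, adjusted p = 0.149). Ino80b, which fell in WT, had 0.46 ± 0.13 (adjusted p = 0.0167), not called without Vps15KO EBSS replicate 3 (adjusted p = 0.056). The SWI/SNF subunits Smarcc1 (-0.33 ± 0.09, adjusted p = 0.0159), Smarcd1 (-0.31 ± 0.09, adjusted p = 0.0288) and Pbrm1 (-0.35 ± 0.11, adjusted p = 0.0359) had the higher EBSS effect in WT. The Pbrm1 call was lost without any 1 of 6 libraries (in WT EBSS numbers 1 and 2, in Vps15KO basal 1 and 3, in Vps15KO EBSS 2 and 3; adjusted p = 0.0633 to 0.0991) and that of Smarcd1 without any 1 of 5 (in WT basal number 3, in WT EBSS 2, in Vps15KO basal 2 and 3, in Vps15KO EBSS 1; 0.0621 to 0.0851). For the other 27 members no difference was called, which does not show equal effects. Without WT basal replicate 2, Chd1 (adjusted p = 0.00102) and Arid1b (0.00839) were called as well, and without WT EBSS replicate 1 Chd4 was (0.0463).

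**Figure D5:**
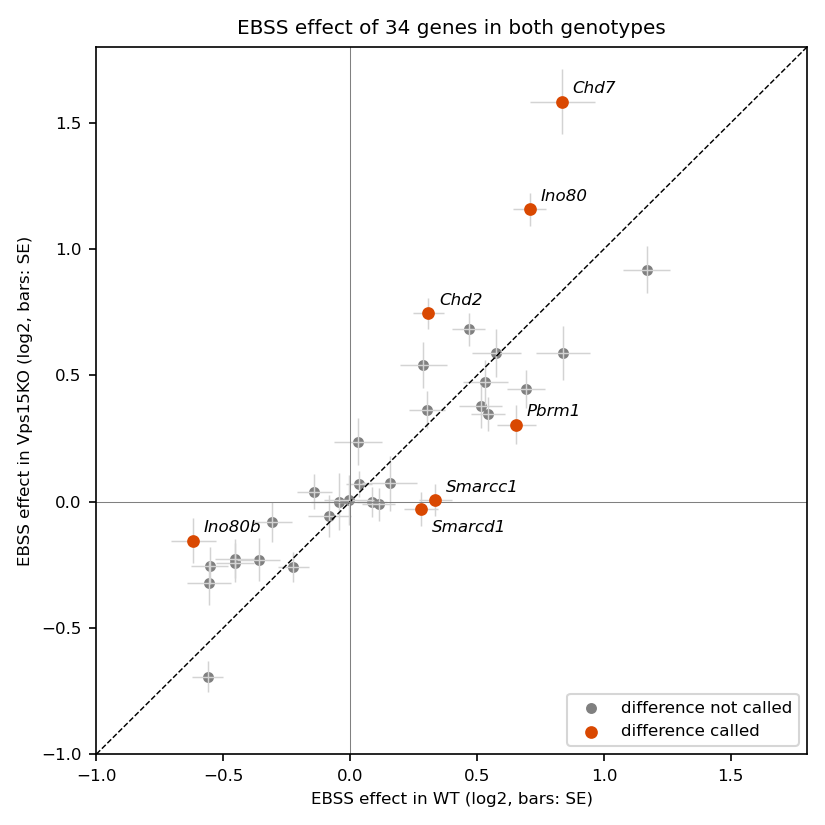
EBSS effect (log2, with SE) in WT against that in Vps15KO for the 34 coding members, with the line of equal effects dashed. Coloured points are the 7 members whose difference was called: Chd7, Ino80, Chd2 and Ino80b above the line, and Pbrm1, Smarcc1 and Smarcd1 below it.

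Subunits of the same complexes outside the symbol rule, with further SNF2-family ATPases, gave 70 tested genes of 75 listed (Actl6b, Dpf3, Bcl11a, Bcl11b and Cecr2 were below the filter). After EBSS 33 rose and 21 fell in WT (median 0.10; all genes 31.4% higher and 31.3% lower), and 24 rose and 15 fell in Vps15KO (median 0.07; all genes 25.9% and 26.1%). Between genotypes 20 were higher in Vps15KO and 15 lower in basal medium (median 0.04; all genes 29.3% and 29.2%), and 23 and 19 in EBSS (median -0.03; all genes 29.4% and 27.8%), so the lean of the members toward lower values was not seen in this list's counts. The scaffold paralogs Epc1 and Epc2 of the TIP60 complex rose after EBSS in both genotypes. Epc1 had 717, 739 and 708 normalized counts in WT basal, 2183, 2162 and 2306 in WT EBSS, 544, 491 and 498 in Vps15KO basal and 2525, 2490.3 and 2431 in Vps15KO EBSS. It rose by 1.58 ± 0.06 (adjusted p = 3.23e-13) in WT and 2.22 ± 0.06 (adjusted p = 6.08e-15) in Vps15KO, and more in Vps15KO by 0.64 ± 0.08 (adjusted p = 4.88e-05). Epc2 rose by 1.99 ± 0.07 and 2.01 ± 0.07, and Ing3, a histone reader of the same complex, by 1.59 ± 0.08 and 1.64 ± 0.08, with means going from 245 to 791 and from 259 to 863. Bptf, the largest subunit of the ISWI complex NURF, rose by 0.84 ± 0.08 and 0.77 ± 0.08.

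Of the BAF partners, Bicra, a subunit of the noncanonical BAF complex, fell after EBSS, with log2 changes of -0.77 ± 0.08 in WT and -0.72 ± 0.08 in Vps15KO, and Bcl7b rose by 0.71 ± 0.09 and 1.04 ± 0.09. Between genotypes, Phf10, a subunit of PBAF, was higher in Vps15KO by 0.66 ± 0.06 (adjusted p = 3.59e-08) and 0.93 ± 0.06 (adjusted p = 3.24e-10), where Bcl7c was lower, with log2 changes of -0.81 ± 0.09 and -0.87 ± 0.09. Actb, which also forms the cytoskeleton, was lower, with log2 changes of -1.19 ± 0.07 and -0.71 ± 0.07. Of the NuRD partners, Hdac1 was lower, with log2 changes of -0.36 ± 0.06 and -0.52 ± 0.06 and Mta1 higher by 0.33 ± 0.06 and 0.52 ± 0.06. Baz1a, which pairs with Smarca5 in the ACF complex, was higher by 0.74 ± 0.16 (adjusted p = 4.94e-04) and 1.28 ± 0.16 (adjusted p = 1.21e-06). Of 13 other SNF2-family ATPases, 9 were higher in Vps15KO in basal medium (median 0.29; all genes 29.3% higher), and 8 higher and 1 lower in EBSS (all genes 29.4% and 27.8%). Of the 19 motors among the members 4 were higher and 10 lower in basal medium (median -0.20), and 6 higher and 8 lower in EBSS (median 0.02). The difference between these lists was not tested. Hells, a helicase needed for DNA methylation, led that list with 1.01 ± 0.12 (adjusted p = 1.71e-06) and 1.04 ± 0.12 (adjusted p = 1.11e-06).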

How the data were processed

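Members, gene lists, motifs and the naming rule were chosen with earlier results of these data known. The deposited table holds log2 values that the authors made from gene counts by a variance-stabilizing transformation, judged from the values. STAR 2.7.10b, mm10, featureCounts, limma and DESeq2 are named, without roles, per the submitters' processing notes. How strand was used in counting is not given in the sources used here. The transformation was inverted from the floor (3.83, which stands for 0 reads), and 100% of values gave whole reads within 0.001. Genes averaging 1 or more over the floor were fitted with limma 3.58.1 in R 4.3.3: a mean per group, 12 libraries, empirical Bayes with trend, 8 residual and 10.2 prior degrees of freedom, two-sided. Adjustment was by Benjamini-Hochberg over the 14279 genes of each comparison. Log2 differences understate ratios of genes with few reads. Every coding member could be named, with each library's value for motors and for the 4 largest called rises and falls per comparison, and up to 3 partners per comparison by smallest p. A few further members are given per library, chosen after their values were seen. Levels per kb used the longest coding transcript (GENCODE M21). Alternatives were a replicate block, 2 other filters, quantile normalization, a fit of only the groups compared, log2 of counts plus 1, voom on worked-back reads, length and GC trends taken out of each library (splines with 5 degrees of freedom), omission of both outlying WT libraries, and omission of each library in turn. The fit was tested on simulated data. A planned search for ATPase motifs in proteins was not run. Motors were assigned from background knowledge. Python 3.11.15 with pandas 2.3.3 made the tables.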

Additional observations from a re-analysis of the deposited data

Results flagged for a closer look

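The EBSS effect differed between the genotypes, by the interaction term of limma, for 7 of the 34 coding members, where 17.8% of all genes tested differed. Differences are the EBSS effect in Vps15KO minus that in WT on the log2 scale. The effect in Vps15KO was above that in WT for Chd7 by 0.75 ± 0.18 (SE), for Ino80b by 0.46 ± 0.13, for Ino80 by 0.45 ± 0.09 and for Chd2 by 0.44 ± 0.09. It was below that in WT for Pbrm1, at -0.35 ± 0.11, for Smarcc1, at -0.33 ± 0.09, and for Smarcd1, at -0.31 ± 0.09. Without both WT libraries that stood apart, 8 members had a higher and 2 a lower effect in Vps15KO: Arid1b, Chd1, Chd4 and Chd6 joined Chd2, Chd7, Ino80 and Ino80b, and Pbrm1 was no longer called.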

How the results depend on the processing

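Over 170 member results and their alternatives, 3381 of 3526 values kept direction and call, 85 lost a call, 57 gained one and 3 changed sign. With length and GC trends removed, the EBSS effect was -0.065 for Chd1 in WT (adjusted p = 0.369), -0.23 for Chd6 in Vps15KO (9.20e-04) and -0.21 for Smarcc1 in Vps15KO (0.00309). There 8 members, not 5, were higher in Vps15KO basal medium, and 5, not 3, had a lower EBSS effect in Vps15KO. Lower effects numbered 1 without a filter, and higher ones 8, not 4, without both WT libraries that stand apart. The cause was not tested. Leaving out each library in turn gave 3 to 7 falls after EBSS in Vps15KO (3 without Vps15KO basal replicate 2) and 1 to 3 lower EBSS effects in Vps15KO (1 without WT EBSS replicate 2 or without Vps15KO basal replicate 3). The other counts stayed within 1.5 times of those reported. No comparison had a same-number correlation of residuals over 0.1 in all 3 pairs. Between genotypes the same-number correlations were nevertheless all positive, 0.083 to 0.26 in basal medium and 0.039 to 0.12 in EBSS. Different-number ones ranged from -0.21 to 0.11 and from -0.11 to -0.012. For the EBSS effects same-number correlations were -0.15 to 0.012. A link between WT and Vps15KO libraries of the same number is thus not excluded. With the replicate block 5 members had a higher EBSS effect in Vps15KO, Smarcal1 being added (0.0401), and no other member's call changed. Leaving out WT basal replicate 2 added calls for Arid2 and Smarcad1 (lower in Vps15KO in basal medium), Chd6 and Smarce1 (EBSS in WT) and Ino80b, Ino80d and Smarcb1 (genotype in EBSS). Leaving out WT EBSS replicate 1 added Ep400, WT EBSS replicate 2 or 3 Ino80d, and Vps15KO EBSS replicate 3 Ino80b (all for the genotype in EBSS). Smarcal1 was added to the differences of the EBSS effect without WT basal replicate 3, WT EBSS replicate 2 or Vps15KO basal replicate 2. Reads limit Chd7, Chd5 and Chd1l most.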

Other observations

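Among the members that encode no protein, Ino80dos, whose gene starts next to Ino80d on chromosome 1, had 48.1, 31.8 and 38.99 normalized counts in WT basal, 48.3, 69.2 and 49.95 in WT EBSS, 19.5, 26.5 and 17.6 in Vps15KO basal and 29.5, 33.5 and 34.6 in Vps15KO EBSS. It was lower in Vps15KO, with log2 changes of -0.52 ± 0.13 in basal medium (SE, limma, adjusted p = 0.00267) and -0.50 ± 0.13 in EBSS (0.00369), and rose after EBSS by 0.33 ± 0.13 (0.0382) and 0.35 ± 0.13 (0.0342). Ndufs1, which overlaps it with far more reads, had log2 changes of 0.37 ± 0.08 and 0.17 ± 0.08 after EBSS and of 0.08 ± 0.08 and -0.12 ± 0.08 between genotypes. Smarca5-ps rose after EBSS in Vps15KO by 0.49 ± 0.15 (0.00982), from 6.85 ± 1.69 to 16.1 ± 2.52 normalized counts (SD, n = 3). Smarce1-ps1 had 0.983 to 10.6 counts and was not tested.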
